A study of Mus musculus with 42 samples.

Results

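Kidneys of male mice fed the MEK inhibitor AS-703026 for 1 month were compared with kidneys of mice on the same chow without a compound. The comparison takes 10 of the 42 libraries of the series, 4 from AS-703026 and 6 from control kidneys, chosen by the tissue and treatment in their labels. All animals were male UM-HET3 mice, a genetically heterogeneous stock bred from a cross of inbred strains. They were 3 months old when the diets began, and the tissue labels give an age of 4 months. Controls ate the Purina 5LG6 diet, and the AS-703026 group ate that diet with the compound at 30 ppm. The labels do not tie libraries to separate animals beyond a replicate number, so the p-values measure the spread between these samples. A further 20 kidney libraries served as a second reference, 4 for each of 5 other compounds in the same chow for the same time. These were KU0063794 at 10 ppm, GDC-0941 at 50 ppm, the antioxidant ascorbyl-palmitate at 6.3 ppm, the kinase inhibitor enzastaurin at 75 ppm and the mTOR inhibitor AZD8055 at 20 ppm. RNA of the whole frozen organ was read by CEL-seq, which counts the 3' ends of polyadenylated RNA.

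AS-703026, also called pimasertib, is an allosteric inhibitor of MEK1 and MEK2, the kinases that phosphorylate and switch on the ERK kinases. ERK lies downstream of the receptors for epidermal and fibroblast growth factors, and it raises the transcription of early genes such as Fos and Egr1 and of its own inhibitors, the dual-specificity phosphatases and the Sprouty and Spred proteins. In the proximal tubule, FGF23 signals through FGF receptors with Klotho and through ERK. It lowers phosphate reabsorption and shifts vitamin D from activation by Cyp27b1 to breakdown by Cyp24a1. The male mouse kidney is also a strong androgen target, and many of its transporters and cytochrome P450 enzymes differ between the sexes.

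Levels below are in CPM, which puts the counts of every library on the same total, with TMM scaling, and changes are log2 changes with their standard error (SE) from edgeR's quasi-likelihood test over the 30 kidney libraries. A gene was called when its Benjamini-Hochberg adjusted p over the 11719 genes tested was under 0.05. The 4 AS-703026 libraries held 1117299 to 3393796 counts and the controls 863605 to 2559118, so that 1 count stood for 0.299 to 1.10 CPM. Between 0.287% and 29.0% of the AS-703026 counts, and between 0.0555% and 12.5% of the control counts, fell in 13 gene models that share satellite-like repeat sequence. With the log2 share of these models as a covariate 20 genes were called. The kidney label held in the 10 libraries: the summed level of 11 proximal tubule markers was 13051 to 24039 CPM under AS-703026 and 19195 to 25844 CPM in controls.

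Replicate 4 of AS-703026 stood apart in its tissue makeup. Markers of the thin limb and inner medulla, the innermost zone of the kidney, summed to 3937 CPM in it against 571 to 1007 CPM in the other 3 AS-703026 libraries and 455 to 587 CPM in controls. Principal cell markers of the collecting duct summed to 3247 CPM, against 558 to 615 and 389 to 526 CPM. Urothelium markers, from the lining of the renal pelvis, reached 323 CPM where the other 3 had 3.3 to 4.78 CPM and controls 1.63 to 9.88 CPM. Some cortical tubule segments were low in the same library: connecting tubule markers summed to 659 CPM against 2245 CPM in the lowest control, and markers of the first proximal segment to 4141 against 6579 CPM. Podocyte markers, also cortical, were not low in it, at 176 CPM against 159 CPM in the highest control. Replicates 1 to 3 were also above every control on the principal cell list, by a small margin, and on the thin limb list in replicates 2 and 3. In whole-organ RNA, fewer cells of a type and less RNA per cell cannot be told apart. Changes of single genes against control are therefore given with all 4 libraries and with replicates 1 to 3 alone. The fit of 3 also leaves out replicate 4 of AZD8055, whose adipocyte markers summed to 34987 CPM and which otherwise enters the shared estimate of spread.

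**Figure D1:**
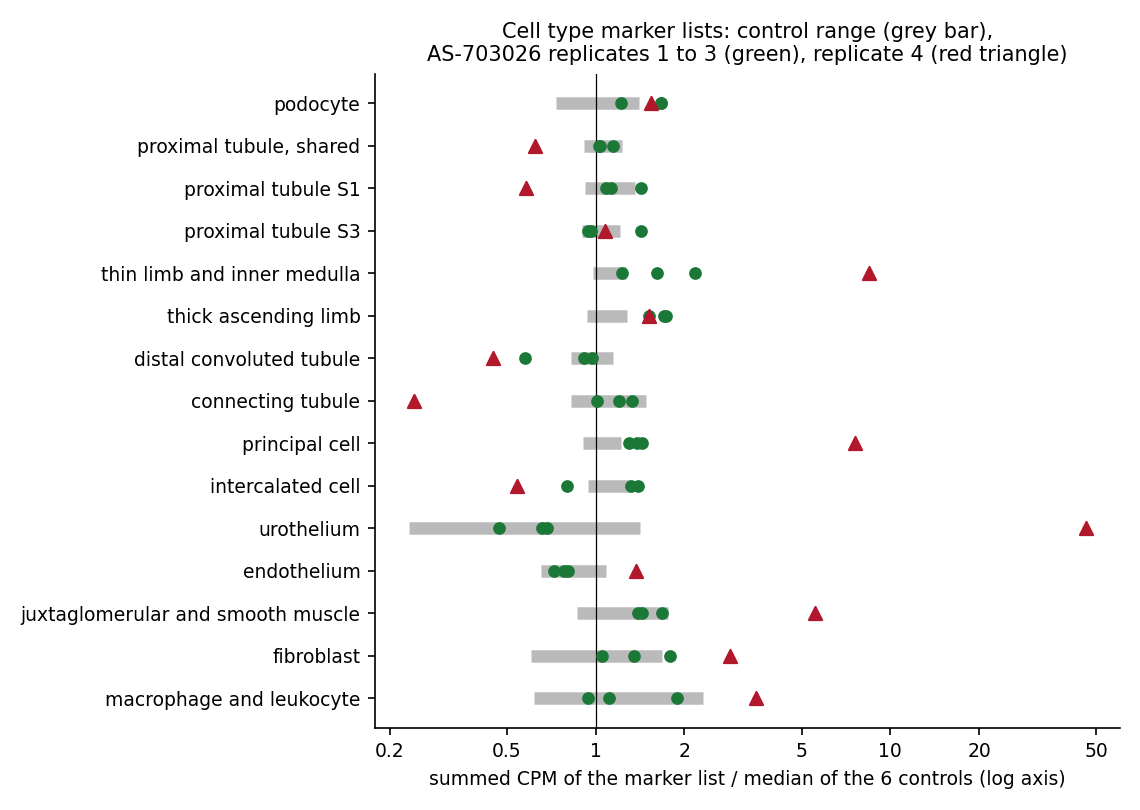
Summed level of each cell type marker list in the AS-703026 libraries, as a ratio to the median of the 6 controls on a log axis. Grey bars span the controls, green points are replicates 1 to 3 and the red triangle is replicate 4, which lies far to the right for urothelium, thin limb and principal cell markers and to the left for connecting tubule and first-segment proximal markers.

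Across the kidney, 108 of 11719 genes (0.922%) were called, 53 higher (0.452%) and 55 lower (0.469%) under AS-703026. An unadjusted p under 0.05 was reached by 1772 genes (15.1%). The higher genes leaned on replicate 4: it was the highest AS-703026 library for 43 of the 53 and at least 2 times the next for 33. Their median log2 change of 1.96 became 0.94 without the 2 libraries, and for 21 of the 52 still tested the log2 change shrank by at least a factor of 2. The log2 changes of the 55 lower genes moved little. Their median was -0.90 with all libraries and -0.89 without the 2, and none shrank that far. By comparison the median over all genes tested was 0.02 and 0.03. The higher and lower genes are not alike in this check. A single low library can pull a mean of 4 down only so far, while a single high one can raise it without limit.

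Without AS-703026 replicate 4 and AZD8055 replicate 4, 18 of 11781 genes (0.153%) were called, 5 higher (0.0424%) and 13 lower (0.110%), and 15 of them were among the 108. Leaving out 1 more AS-703026 or control library left 1 to 100 genes. Cyp24a1 and Slco1a1 were called in 8 of those 9 fits, Cyp4a12a in 7, 4931406C07Rik in 5, Havcr1 in 4 and the other 13 genes in 2 or 3. The 5 higher genes were Cyp24a1, Prlr, Havcr1, Ucp2 and Plekhg6. The 13 lower genes were Slco1a1, Cyp4a12a, Hsd11b1, Lipo3, Agps, Tram1, Cpsf6, Ergic2, Med21, Mfap3l, Tsc22d2, Gm15563 and 4931406C07Rik. Plekhg6, Hsd11b1 and Mfap3l were not called with all libraries. A count with no test gave the same question another form: replicates 1 to 3 were all above the 6 controls for 296 genes (2.53%) and all below for 302 (2.58%). With replicate 4 as well these were 202 (1.72%) and 218 (1.86%). Some genes named below were chosen for this separation or after their values were seen, so for them it is not separate support. Among the called genes, 27 of the 53 higher and 32 of the 55 lower had replicates 1 to 3 outside the control range.

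The number of calls depended on single libraries. No gene was called without AS-703026 replicate 4, without control 4 or without control 5, with all other libraries in the fit, and 1157, 1497 and 1478 genes then had an unadjusted p under 0.05 in edgeR's test. Leaving out control 3 left 11 genes, control 1 left 42, AS-703026 replicate 2 left 67, AS-703026 replicate 1 left 176 and control 2 left 244. With AZD8055 replicate 4 alone left out, and all AS-703026 and control libraries kept, 339 of 12227 genes (2.77%) were called, 152 higher (1.24%) and 187 lower (1.53%), including all 108. Leaving out any further library but AS-703026 replicate 4 then left 124 to 522 genes, and 66 of the 108 were called in each of those 9 fits. The medullary level as a covariate, which replicate 4 sets apart, left 0 called and 945 at an unadjusted p under 0.05 (8.06%).

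**Figure D2:**
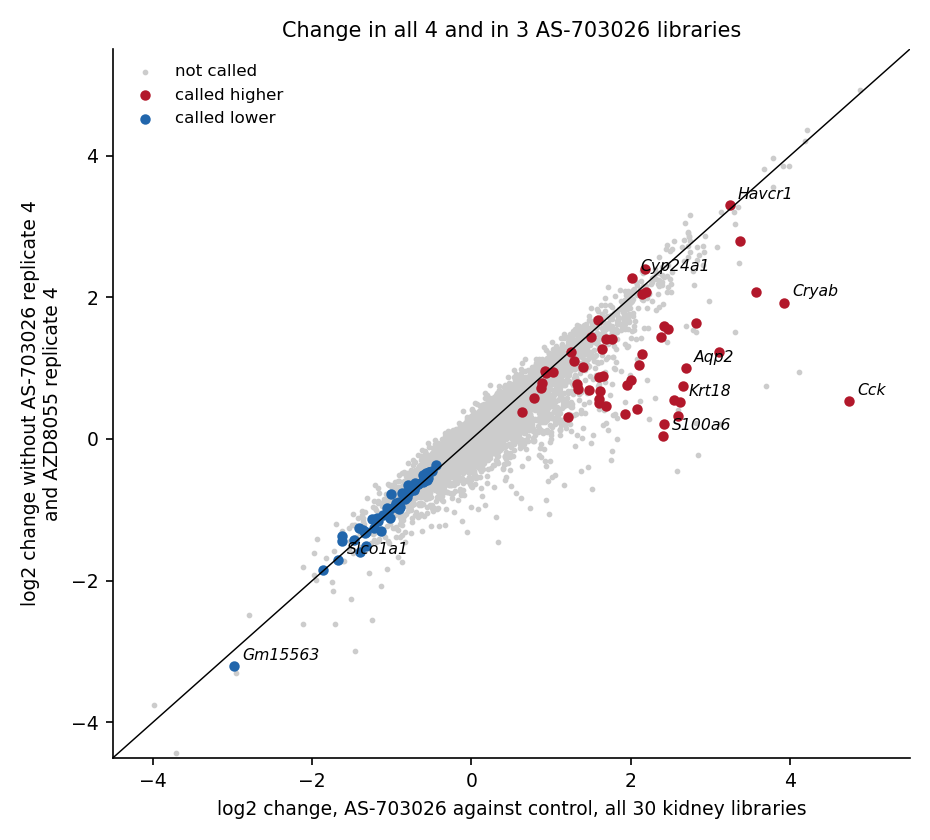
Log2 change of each gene tested, AS-703026 against control, with all 30 kidney libraries (x axis) and without the 2 libraries named on the y axis. The line marks equal change: blue points, the 55 genes called lower, lie along it, while many of the 53 red points called higher lie below it, such as Cck, Krt18, S100a6 and Aqp2.

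The gene of vitamin D breakdown rose, and its partners did not pass the test. Cyp24a1 (ENSMUSG00000038567, chromosome 2, 170482708 to 170497145, minus strand, GRCm38) encodes the hydroxylase that inactivates vitamin D. Its level was 299, 177, 287 and 96.8 CPM in AS-703026 replicates 1 to 4, against 32.9 at the lowest, 50.3 at the median and 90.4 CPM at the highest of the 6 controls. All 4 treated libraries were above every control, and replicate 4, the library low in connecting tubule and first-segment proximal markers, was the lowest of them. The change was 2.01 ± 0.41 (SE, adjusted p = 0.0241) and 2.28 ± 0.38 (SE, adjusted p = 0.00971) with replicates 1 to 3. The call was lost without AS-703026 replicate 4 or controls 4 or 5 (adjusted p = 0.0706 to 0.0798).

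Of the 9 tested genes of vitamin D metabolism and response, 1 was called higher (Cyp24a1) and none lower, where 0.452% and 0.469% of all genes were, and the median of the list was -0.13, or -0.07 with replicates 1 to 3. Cyp27b1, the activating enzyme, was too low to test: 0, 3.30, 2.39 and 0.73 CPM under AS-703026 and at most 6.98 CPM in controls, where 3 counts stand for 0.896 to 3.30 CPM. Vdr, the vitamin D receptor, had 894, 899, 617 and 338 CPM against 513 to 759.5 CPM in controls (log2 change 0.18 ± 0.28 (SE), adjusted p = 0.809; with replicates 1 to 3 0.43, adjusted p = 0.426). Replicates 1 and 2 were above the controls and replicate 4 below them. Of 16 tested genes of phosphate and calcium handling, 1 was called higher, the thick limb tight-junction gene Cldn16, and none lower, against the same 0.452% and 0.469%. Their median was 0.03, or 0.16 with replicates 1 to 3. Slc34a1, the main phosphate cotransporter of the proximal tubule, had 6445, 5207, 5247 and 2562 CPM against 5197 to 6971 CPM (log2 change -0.29 ± 0.26 (SE), adjusted p = 0.642; with replicates 1 to 3 -0.06, adjusted p = 0.927). Replicate 4 was below every control, as were its summed shared and first-segment proximal markers. Its summed markers of the S3 proximal segment, at 6494 CPM, lay within the control range of 5429 to 7271 CPM. Kl, which encodes the FGF23 co-receptor Klotho, had 559, 665, 372 and 257 CPM against 499.7 to 655 CPM, with replicates 3 and 4 below the controls (log2 change -0.31 ± 0.28 (SE), adjusted p = 0.632; with replicates 1 to 3 -0.10, adjusted p = 0.881).

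Some genes known to be higher in male kidney fell. Of 21 tested, 4 were called lower where 0.469% of all genes were, none was called higher, and the list's median was -0.52, or -0.38 with replicates 1 to 3. Against the other compounds the median was -0.29, and each of those compounds had a median of -0.31 to 0.04 against the same controls. Slco1a1 (ENSMUSG00000041698, chromosome 6, 141907282 to 141946962, minus strand), a tubular importer of organic anions that depends on androgen in mice, had 199, 184, 248 and 244 CPM against 434, 728 and 911 CPM at the lowest, median and highest control. No treated library reached the lowest control. The change was -1.67 ± 0.31 (SE, adjusted p = 0.0203), and -1.71 ± 0.26 (SE, adjusted p = 0.00499) with replicates 1 to 3. It was not called without AS-703026 replicate 4 or controls 4 or 5 (adjusted p = 0.0571 to 0.104).

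Cyp4a12a (ENSMUSG00000066071, chromosome 4, 115299046 to 115332815, plus strand), an androgen-dependent enzyme that hydroxylates arachidonic acid to 20-HETE, had 711, 651, 1013 and 789 CPM against 1339, 1771 and 2153 CPM. The groups did not overlap. It fell by 1.17 on the log2 scale (SE 0.27, adjusted p = 0.0394), with -1.15 ± 0.20 (SE, adjusted p = 0.00971) in replicates 1 to 3. The call was lost without AS-703026 replicates 1, 2 or 4 or controls 1, 3, 4, 5 or 6 (adjusted p = 0.0506 to 0.206). A near-identical copy of this gene exists, and how the counting split reads between them is not given in the sources used here.

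Odc1, the first enzyme of polyamine synthesis and an androgen target in this organ, had 176, 93.4, 105 and 69.7 CPM against 168, 307 and 492 CPM. Replicate 1 lay just above the lowest control and the other 3 below all controls (log2 change -1.63 ± 0.40 (SE), adjusted p = 0.0451; without the 2 libraries -1.44, adjusted p = 0.0663). Slc22a30, a transporter of the organic anion family, had 156, 165, 207 and 179 CPM against 207 to 711 CPM (log2 change -1.32 ± 0.31 (SE), adjusted p = 0.0394; with replicates 1 to 3 -1.31, adjusted p = 0.0633). Controls 3 to 5 had 609 to 711 CPM and the other 3 controls 207 to 272 CPM. Against the other compounds it changed by -0.29 (adjusted p = 0.63), and each of those compounds had a change of -0.89 to -1.22 against the same controls, of which AZD8055 was called (-1.13, adjusted p = 0.0267). The calls of Odc1 and Slc22a30 were each lost on leaving out any of 7 of the 10 libraries, with adjusted p of at most 0.246 and 0.206. Cyp2j13, an epoxygenase, stood below every control in all 4 libraries, at 358, 241, 268 and 149.7 CPM against 450.1 to 623 CPM, and missed the threshold (log2 change -1.06 ± 0.27 (SE), adjusted p = 0.0531; with replicates 1 to 3 -0.86, adjusted p = 0.0633). Gusb, the androgen-induced beta-glucuronidase, had 47.3, 82.4, 58 and 53.7 CPM against 79.9 to 265 CPM (log2 change -1.39 ± 0.47 (SE), adjusted p = 0.138; with replicates 1 to 3 -1.33, adjusted p = 0.258).

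Hsd11b1, which regenerates active glucocorticoid, differed between replicate 4 and the other libraries. Replicates 1 to 3 had 27, 37.4 and 70.2 CPM, below the lowest control at 79.8 CPM, and replicate 4 had 217 CPM, above the control median of 207 CPM. The change was -1.14 (adjusted p = 0.205) with all libraries and -2.08 ± 0.43 (SE, adjusted p = 0.035) with replicates 1 to 3. The latter fit also leaves out AZD8055 replicate 4. With AS-703026 replicate 4 alone left out, Hsd11b1 changed by -2.09 and was not called (adjusted p = 0.104). Kap, the classic androgen-regulated kidney transcript, overlapped the controls at 27762, 27830.2, 42306 and 44920.4 CPM against 30757 to 45420.0 CPM (log2 change -0.12 ± 0.28 (SE), adjusted p = 0.889; with replicates 1 to 3 -0.23, adjusted p = 0.637). Slc7a12, an amino acid transporter of this list that is reported as higher in female kidney, went the other way at 4.6, 19.8, 20.9 and 2.92 CPM against at most 4.88 CPM in controls, where the 2 highest are replicates 2 and 3 (log2 change 2.68 ± 0.73 (SE), adjusted p = 0.0644; with replicates 1 to 3 3.05, adjusted p = 0.0633).

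Of 8 tested genes known to be higher in female kidney, 1 was called higher, where 0.452% of all genes were, and none lower. Their median change was 0.91, 0.83 with replicates 1 to 3 and 0.61 against the other compounds. Each of those compounds had a median of 0.07 to 0.52 against the same controls. Prlr (ENSMUSG00000005268, chromosome 15, 10177238 to 10349180, plus strand), the prolactin receptor, had 40.8, 31.9, 30.8 and 17.5 CPM against 4.42, 6.05 and 10.6 CPM. Every treated library was above every control. The change was 2.18 ± 0.47 (SE, adjusted p = 0.0334) and 2.40 ± 0.49 (SE, adjusted p = 0.035) with replicates 1 to 3, and it was not called without AS-703026 replicate 4 or controls 3, 4 or 5 (adjusted p = 0.0542 to 0.104). Cyp4a14, a fatty acid hydroxylase, had 25.6, 22, 21.5 and 13.9 CPM against 1.16 to 6.59 CPM (log2 change 2.52 ± 0.65 (SE), adjusted p = 0.0534; with replicates 1 to 3 2.68, adjusted p = 0.0633). Kynu, the kynureninase of tryptophan breakdown, had 11.2, 11, 13.4 and 9.49 CPM against 2.21 to 7.33 CPM (log2 change 1.38 ± 0.40 (SE), adjusted p = 0.0851; with replicates 1 to 3 1.48, adjusted p = 0.128). For both, all 4 treated libraries exceeded all controls although neither was called. The same separation was found in 202 of 11719 genes (1.72%). Cyp4a14 was named by a rule that asks for replicates 1 to 3 outside the control range, and Kynu after its values were seen. Against the other compounds they changed by 1.20 and 0.57 (adjusted p = 0.213 and 0.379). Those compounds reached 42.8 CPM of Cyp4a14 and 16.1 CPM of Kynu in their highest library. Their changes against the same controls were 0.55 to 1.85 for Cyp4a14 and 0.26 to 1.57 for Kynu.

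**Figure D3:**
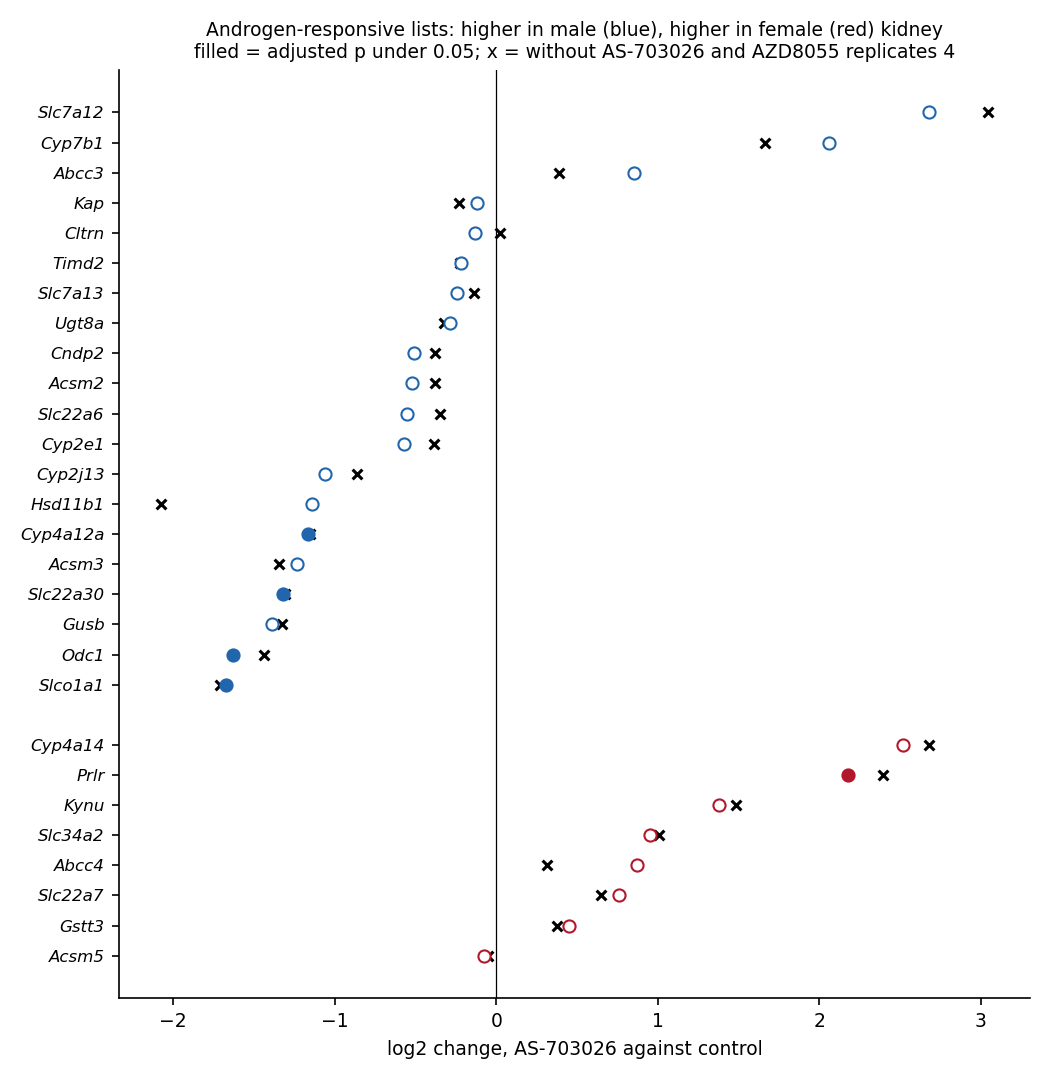
Log2 change under AS-703026 of the genes shown, listed as higher in male (blue) or in female kidney (red), with filled circles for adjusted p under 0.05 and crosses for the fit without the 2 libraries. Of the 20 male-list genes shown 17 lie left of 0, Slco1a1 farthest, and 7 of the 8 female-list genes lie right of it, with Prlr the filled red point.

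**Figure D4:**
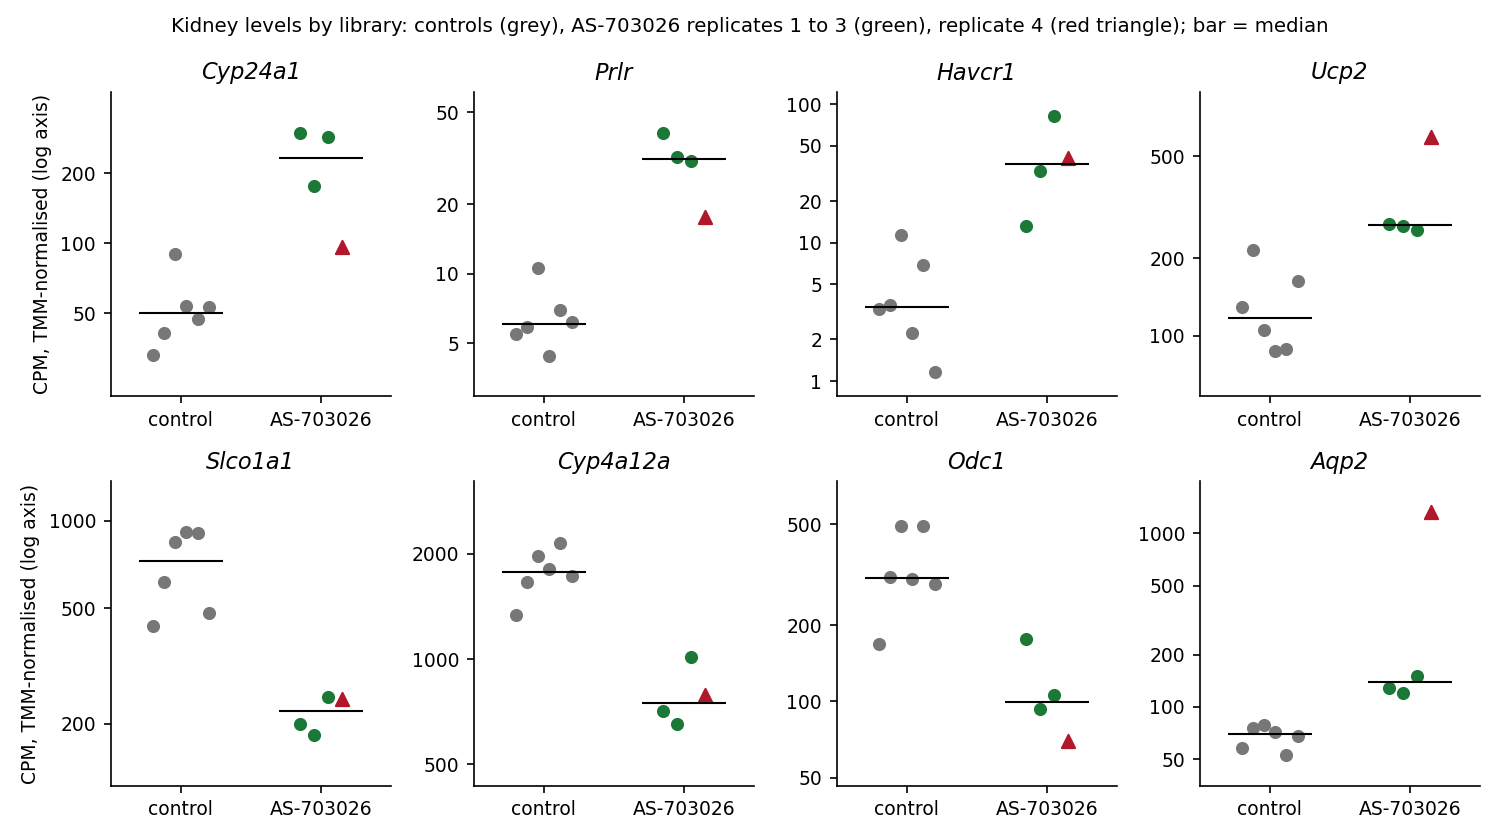
CPM of 8 genes in each control library (grey), in AS-703026 replicates 1 to 3 (green) and in replicate 4 (red triangle), on log axes with a bar at each median. In Cyp24a1, Prlr, Havcr1, Ucp2, Slco1a1 and Cyp4a12a the groups do not overlap; in Aqp2 they do not overlap either, but replicate 4 stands far above the rest.

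A marker of proximal tubule injury rose in all 4 libraries. Havcr1 (ENSMUSG00000040405, chromosome 11, 46735080 to 46779578, plus strand) encodes KIM-1, a phagocytic receptor that injured proximal cells display. It had 13.2, 33, 81.9 and 41.3 CPM against 1.16, 3.41 and 11.4 CPM in the lowest, median and highest control. Replicate 1 was only just above the highest control and replicate 3 the farthest from it. The change was 3.24 ± 0.66 (SE, adjusted p = 0.0243) and 3.30 ± 0.68 (SE, adjusted p = 0.035) with replicates 1 to 3, and it was not called without AS-703026 replicates 3 or 4 or controls 4 or 5 (adjusted p = 0.062 to 0.104).

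Of 18 tested genes of tubular injury and repair, 3 were called higher, where 0.452% of all genes were, and none lower, with a median of 0.48 and of 0.36 without the 2 libraries. The other 2 calls, Krt18 and S100a6, rested on replicate 4. Krt18, a simple-epithelium keratin, had 10.5, 14.3, 7.77 and 140.2 CPM against 2.95 to 12.2 CPM, and its change went from 2.62 to 0.52. S100a6, a calcium-binding protein, had 21.7, 23.1, 30.2 and 446 CPM against 20.6 to 29.5 CPM, with changes of 2.41 and 0.04. Lcn2, the secreted injury marker NGAL, was too low to test, at 3.29, 1.1, 0.598 and 13.1 CPM against at most 1.63 CPM. Vim, the intermediate filament of dedifferentiated and stromal cells, had 30.9, 25.3, 30.2 and 61.3 CPM, all above the control range of 14.7 to 20.6 CPM, without reaching the threshold (log2 change 1.17 ± 0.62 (SE), adjusted p = 0.376; with replicates 1 to 3 0.81, adjusted p = 0.121). Spp1, osteopontin, had 182, 179, 248 and 339 CPM against 111 to 226 CPM (log2 change 0.71 ± 0.26 (SE), adjusted p = 0.178; with replicates 1 to 3 0.50, adjusted p = 0.317). The injury markers other than Havcr1 thus overlapped the controls or missed the threshold once replicate 4 was left out.

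Of 28 tested PPAR alpha targets and fatty acid oxidation genes, 1 was called higher, where 0.452% of all genes were, and none lower. The median was 0.28, 0.25 with replicates 1 to 3 and -0.17 against the other compounds. Those compounds had medians of 0.03 to 0.71 against the same controls, the highest under AZD8055. In 6 of the 28 replicates 1 to 3 were all above the controls, where 2.53% of all genes were. Cyp4a10, a PPAR alpha-induced fatty acid hydroxylase, had 201, 367, 387 and 256 CPM against 58.3, 99.9 and 144 CPM. The groups did not overlap (log2 change 1.59 ± 0.39 (SE), adjusted p = 0.0421; with replicates 1 to 3 1.68, adjusted p = 0.0633), and the call was lost on leaving out any of 9 of the 10 libraries (adjusted p = 0.0521 to 0.179). Close relatives of this gene lie beside it, and reads may be split among them.

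Ucp2 (ENSMUSG00000033685, chromosome 7, 100493337 to 100502020, plus strand), a carrier of the inner mitochondrial membrane, had 271, 268, 257 and 592 CPM against 86.9, 117 and 216 CPM. Replicates 1 to 3 lay close together above the highest control, with replicate 4 at more than 2 times their level. It rose by 1.40 ± 0.30 (SE, adjusted p = 0.0334), or 1.02 ± 0.21 (SE, adjusted p = 0.0373) with replicates 1 to 3, and was not called without AS-703026 replicate 4 or controls 1, 3, 4 or 5 (adjusted p = 0.051 to 0.224).

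Transcripts of the ERK pathway itself did not pass the test. None of 25 tested members of the cascade and its inputs was called, and their median was 0.05, or 0.11 with replicates 1 to 3. Map2k1 and Map2k2, which encode the drug's targets MEK1 and MEK2, had 87.5, 52.8, 61.5 and 80.3 CPM and 132, 102, 112 and 96 CPM against control ranges of 56.7 to 82.2 and 83 to 141 CPM. Their changes were 0.09 ± 0.14 and 0.05 ± 0.15 (SE), or 0.03 and 0.12 with replicates 1 to 3. Mapk3, which encodes ERK1, had a change of 0.52 ± 0.17 (SE, adjusted p = 0.122), or 0.35 with replicates 1 to 3. It was highest in replicate 4, at 101 CPM against 46.9 to 61.5 CPM in controls.

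Of 12 tested feedback genes that ERK induces, 9 had a negative change, none was called and the median was -0.29, or -0.27 without the 2 libraries. Against the other compounds the median was -0.10, and each of those compounds had a median of -0.12 to -0.24 against the same controls. Dusp6, the ERK phosphatase used as a readout of MEK inhibition, had 61.8, 56, 58.3 and 33.2 CPM against 53.7, 59.3 and 117 CPM. Replicates 1 to 3 lay inside the control range, close to its median, and replicate 4 below it (log2 change -0.42 ± 0.25 (SE), adjusted p = 0.446; with replicates 1 to 3 -0.23, adjusted p = 0.749). Against the other compounds Dusp6 changed by 0.10 (adjusted p = 0.865). Each of those compounds had a change of -0.37 to -0.80 against the same controls. Spred1, an inhibitor of RAS signalling to RAF, had 42.1, 40.7, 28.4 and 37.2 CPM against 39.5 to 62.6 CPM (log2 change -0.35 ± 0.17 (SE), adjusted p = 0.329; with replicates 1 to 3 -0.35, adjusted p = 0.446). Etv5 had a change of -0.30 ± 0.28 (adjusted p = 0.649), Etv1 of -0.86 ± 0.30 (adjusted p = 0.147) and Spry4, at most 6.57 CPM under the compound, of -0.03 ± 0.47 (adjusted p = 0.99). With replicates 1 to 3 these were -0.20, -0.64 and -0.31. Etv1 and Etv5 are ETS transcription factors of growth factor signalling, and Spry4 is a Sprouty inhibitor. With SEs of 0.17 to 0.47 on these log2 changes, small differences were not detectable at this depth.

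Of 15 immediate early ERK targets, 8 were abundant enough to test, none was called and the median was 0.51, or 0.42 with replicates 1 to 3. Egr1 was near the counting floor, at 0, 1.1, 2.39 and 2.19 CPM against 1.16 to 5.21 CPM (log2 change -0.79 ± 0.71 (SE), adjusted p = 0.637; with replicates 1 to 3 -1.01, adjusted p = 0.623). Fos was too low to test, at 2.63, 1.1, 2.99 and 2.56 CPM against 0.388 to 2.36 CPM. Junb, an AP-1 subunit, had 5.26, 7.69, 7.77 and 15.3 CPM against 0.814 to 7.69 CPM (log2 change 1.22 ± 0.44 (SE), adjusted p = 0.166; with replicates 1 to 3 0.82, adjusted p = 0.48). Fgf1, the acidic fibroblast growth factor that tubule cells make, was not called against control (log2 change 0.30 ± 0.17 (SE), adjusted p = 0.433; with replicates 1 to 3 0.25, adjusted p = 0.569) and was higher against the other compounds (0.71 ± 0.14 (SE, adjusted p = 0.00955); without the 2 libraries 0.62, adjusted p = 0.0866), at 129, 200.0, 209 and 213 CPM against a median of 114 CPM over their 20 libraries.

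Genes of the collecting duct and inner medulla were called higher, with a large share of the change in replicate 4. Of 11 tested principal cell markers 4 were called, and of 8 tested thin limb and inner medulla markers 3 were, where 0.452% of all genes were. The medians of 0.86 and 1.27 became 0.29 and 0.50 without the 2 libraries. Aqp2, the vasopressin-regulated water channel, had 129, 119.8, 150.3 and 1333 CPM against 52.7, 69.8 and 78.2 CPM. All 4 libraries were above every control, replicates 1 to 3 by a small distance and replicate 4 by far (log2 change 2.69 ± 0.48 (SE), adjusted p = 0.0203; with replicates 1 to 3 1.00, adjusted p = 0.0805); without the 2 libraries the change was 1.00 ± 0.25 (SE, adjusted p = 0.0805). Aqp4, the basolateral water channel of the same cells, had 34.2, 74.7, 126 and 674 CPM against 12.7 to 26.9 CPM, with changes of 3.58 and 2.08 (adjusted p = 0.039 and 0.244). Cryab, a small heat shock protein that hypertonic medullary cells make in quantity, had 74.3, 179, 368 and 2749.6 CPM against 45 to 66.7 CPM, with changes of 3.92 and 1.92 (adjusted p = 0.0203 and 0.139).

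These 3 genes were above all controls in each treated library, while others were so in replicate 4 alone or in part. Fxyd4, a sodium pump subunit of the collecting duct, had 23.7, 15.4, 45.4 and 285 CPM against 17.7 to 28.7 CPM, and its change went from 2.07 to 0.43. Cck had 1.32, 1.1, 3.59 and 161 CPM and Sptssb 1.32, 6.59, 1.2 and 184 CPM, against at most 2.89 and 5.21 CPM in controls. Cck, the cholecystokinin gene, changed by 4.74 with all libraries and 0.54 without the 2, and Sptssb, a serine palmitoyltransferase subunit, was then too low to test. Plet1, Gstm2, Bcam and the interferon-induced Ifit3 followed replicate 4 in the same manner, with changes of 2.59, 1.69, 2.00 and 2.55 that became 0.32, 0.47, 0.83 and 0.55. Of these 4, Bcam alone was above the highest control in every treated library. The part of tissue makeup in these values was not tested.

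The summed level of thick ascending limb markers was 3486, 3117, 3558 and 3109 CPM against 1923, 2049.6 and 2630.4 CPM, so that no treated library reached down to the highest control. Their median change was 0.77, and 0.78 with replicates 1 to 3, but only 1 of the 10 genes was called, where 0.452% of all genes were called higher. Against the other compounds the median was 0.27, and those compounds had medians of 0.07 to 1.13 against the same controls, the highest under ascorbyl-palmitate. The called gene, Cldn16, the claudin of magnesium and calcium reabsorption, had 8.55, 5.5, 9.56 and 16.8 CPM against 0.737 to 5.79 CPM (log2 change 1.76 ± 0.44 (SE), adjusted p = 0.0467; with replicates 1 to 3 1.41, adjusted p = 0.192). Umod, the uromodulin gene and the segment's most abundant marker here, had 2219, 1967, 2319 and 1901 CPM against 909.8 to 1420.1 CPM (log2 change 0.99 ± 0.36 (SE), adjusted p = 0.173; with replicates 1 to 3 1.04, adjusted p = 0.243). Slc12a1, its sodium-potassium-chloride cotransporter, had 235, 289, 343 and 322 CPM against 114 to 279 CPM (log2 change 0.64 ± 0.38 (SE), adjusted p = 0.44; with replicates 1 to 3 0.62, adjusted p = 0.554). In the next segment, the distal convoluted tubule, all 7 tested markers had a negative change, with a median of -0.79 and of -0.57 without the 2 libraries. Each of the other 5 compounds had a median of -0.46 to -0.75 against the same controls, and against those compounds the AS-703026 median was -0.13. Slc12a3, its thiazide-sensitive cotransporter, had 82.9, 71.4, 43 and 27.8 CPM, below the lowest control at 86 CPM in every treated library (log2 change -1.05 ± 0.34 (SE), adjusted p = 0.123; with replicates 1 to 3 -0.80, adjusted p = 0.245). Tsc22d2 of this list was called lower, where 0.469% of all genes were (log2 change -1.22 ± 0.24 (SE), adjusted p = 0.0241; -1.25 with replicates 1 to 3), at 24.3, 12.1, 9.86 and 16.4 CPM against 23.3 to 50.4 CPM. Against the other compounds Slc12a3 changed by -0.24 and Tsc22d2 by -0.39 (adjusted p = 0.733 and 0.368).

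Among vessel genes, 1 of 17 tested was called lower, where 0.469% of all genes were, and none higher. Their median was -0.01, or -0.08 with replicates 1 to 3. Esm1, an endothelial proteoglycan that VEGF induces, had 8.55, 4.4, 6.57 and 3.29 CPM against 8.14, 17 and 29.7 CPM. Replicate 1 lay just above the lowest control and the others below it (log2 change -1.62 ± 0.39 (SE), adjusted p = 0.0421; -1.37 without the 2 libraries, adjusted p = 0.138), and the call was lost without any of 9 of the 10 libraries (adjusted p = 0.0504 to 0.259). Vegfa had 82.9, 74.7, 78.3 and 45.6 CPM against 78.9 to 163 CPM (log2 change -0.75 ± 0.22 (SE), adjusted p = 0.0879; with replicates 1 to 3 -0.56, adjusted p = 0.194) and its receptor Kdr 51.9, 44, 34.4 and 31 CPM against 37.4 to 76 CPM (log2 change -0.61 ± 0.20 (SE), adjusted p = 0.114; with replicates 1 to 3 -0.49, adjusted p = 0.325). Markers of endothelium summed to 359.7, 323, 348 and 610.2 CPM against 292 to 485 CPM, so Esm1 was lowest in the library where the summed markers were highest.

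Several further genes fell in all 4 libraries or nearly so. Lipo3, of the acid lipase family, had 69, 62.6, 103 and 122 CPM against 142 to 267 CPM (log2 change -1.13 ± 0.27 (SE), adjusted p = 0.0406; with replicates 1 to 3 -1.30, adjusted p = 0.035). Agps, an enzyme of ether lipid synthesis in peroxisomes, had 146, 165, 174 and 209 CPM against 229 to 494 CPM (log2 change -1.03 ± 0.23 (SE), adjusted p = 0.039; with replicates 1 to 3 -1.11, adjusted p = 0.035). Med21, a Mediator subunit, had 56.5, 53.9, 57.4 and 52.9 CPM against 82.5 to 103 CPM (log2 change -0.78 ± 0.15 (SE), adjusted p = 0.0207; with replicates 1 to 3 -0.74, adjusted p = 0.035). Tram1, of the endoplasmic reticulum translocon, had 181, 166, 159.5 and 174 CPM against 223 to 295 CPM (log2 change -0.61 ± 0.14 (SE), adjusted p = 0.039; with replicates 1 to 3 -0.61, adjusted p = 0.035). All 4 treated libraries were below the 6 controls in 218 of the 11719 genes (1.86%). The naming rule in part selected genes by such separation in replicates 1 to 3. In Lipo3, Agps, Med21 and Tram1 the groups did not overlap. The same held for 4931406C07Rik at 512, 488, 628 and 408 CPM against 781 to 1048 CPM (log2 change -0.87 ± 0.15 (SE), adjusted p = 0.0203; with replicates 1 to 3 -0.76, adjusted p = 0.0258). It also held for Tfrc, the transferrin receptor, at 27.6, 22, 26.6 and 29.9 CPM against 35.7 to 68.9 CPM (log2 change -0.92 ± 0.22 (SE), adjusted p = 0.0406; with replicates 1 to 3 -0.96, adjusted p = 0.0633). The gene model Gm15563 was at 0, 1.1, 0.896 and 1.1 CPM, at or below 3 counts per library, against 3.29 to 11 CPM in controls (adjusted p = 0.0241, and 0.0452 with replicates 1 to 3). Mfap3l changed by -0.80 ± 0.16 (SE, adjusted p = 0.035) and Plekhg6 by 1.33 ± 0.28 (SE, adjusted p = 0.0373) with replicates 1 to 3, and by -0.69 and 1.13 with all libraries (adjusted p = 0.101 and 0.066). With AS-703026 replicate 4 alone left out, they changed by -0.80 and 1.34 and were not called (adjusted p = 0.224 and 0.140). Nfkbia, the NF-kappa-B inhibitor that NF-kappa-B itself induces, rose: it had 52.6, 60.4, 46.9 and 85.4 CPM, all above the control range of 32.9 to 38.3 CPM (log2 change 0.79 ± 0.14 (SE), adjusted p = 0.0203; 0.58 without the 2 libraries, adjusted p = 0.0615). The calls of Lipo3, Agps, Tram1 and Tfrc were lost on leaving out any of 7 or 8 of the 10 libraries, and those of Med21, Gm15563, 4931406C07Rik and Nfkbia without AS-703026 replicate 4, control 4 or control 5, with adjusted p of at most 0.204.

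A group of RNA-processing genes fell against control and not against the other compounds. Of 36 tested factors of splicing and 3' end processing, 6 were called lower, where 0.469% of all genes were, none was called higher, and the median was -0.52 with and without the 2 libraries. Cpsf6, of the cleavage factor that sets poly(A) site choice, had 55.9, 57.1, 52.9 and 69.4 CPM against 58.3, 116 and 152 CPM. Replicates 1 to 3 lay below all controls and replicate 4 within them (log2 change -0.91 ± 0.18 (SE), adjusted p = 0.0243; -0.99 with replicates 1 to 3). Srsf6, a splicing factor of the SR family, had 76.3, 69.2, 60.9 and 63.9 CPM against 75.4 to 203 CPM (log2 change -1.11 ± 0.22 (SE), adjusted p = 0.0241; with replicates 1 to 3 -1.07, adjusted p = 0.0633). Sfpq changed by -0.67 and Khdc4 by -0.94 (adjusted p = 0.0465 and 0.0406; with replicates 1 to 3 -0.64 and -0.91, adjusted p = 0.134 and 0.119); both encode RNA-binding proteins of the nucleus. Leaving out AS-703026 replicate 4 or control 3, 4 or 5 ended each of these 4 calls. Those of Sfpq and Khdc4 were lost on leaving out any of 8 of the 10 libraries. Against the other 5 compounds the list's median was 0.02, and the 4 genes changed by -0.01, -0.16, 0.13 and 0.20. Each other compound's own median against the same controls was -0.53 to -0.65, and these comparisons share the 6 controls. The 3 highest controls were controls 3, 4 and 5 in 29 of the 55 lower genes (52.7%), against 1189 of the 11719 tested (10.1%). The part of these 3 libraries in the result was not tested further.

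Set against the mean of the other 5 compounds, AS-703026 differed in 88 of 11719 genes (0.751%), 75 higher (0.640%) and 13 lower (0.111%). The controls do not enter this contrast but do enter the filter and the shared spread, and 61 genes were called with them left out. Without replicate 4 of AS-703026, 5 genes were called, and without it and AZD8055 replicate 4, 14 were. Both comparisons use the same AS-703026 libraries, and 41 of the 108 genes were called in both, 31 higher and 10 lower. Of the 55 genes lower against control, 45 were not called here, and 42 were within 0.5 of 0. Cyp24a1 was higher against the other compounds (1.85 ± 0.30 (SE, adjusted p = 0.00307)), at 299, 177, 287 and 96.8 CPM against 15.9, 52.8 and 229 CPM at their lowest, median and highest. Prlr was higher (1.88 ± 0.35 (SE, adjusted p = 0.00644)), as was Havcr1 (2.72 ± 0.44 (SE, adjusted p = 0.00307)). The 20 libraries of the other compounds had 2.09 to 35.2 CPM of Prlr and 0.462 to 41.9 CPM of Havcr1, with medians of 5.21 and 4.15 CPM. Those compounds changed Prlr by -0.95 to 1.76 and Havcr1 by -0.56 to 2.01 against the same controls, both highest under ascorbyl-palmitate. Slco1a1 was lower (-1.42 ± 0.28 (SE, adjusted p = 0.00955)), with their 20 libraries at 181 to 900.2 CPM. Odc1 was lower (-1.51 ± 0.36 (SE, adjusted p = 0.0391)), and Cyp4a12a missed the threshold (-0.95 ± 0.24 (SE, adjusted p = 0.0557)). Esm1 was lower (-1.90 ± 0.35 (SE, adjusted p = 0.00644)). Slc7a12 was higher (2.50 ± 0.52 (SE, adjusted p = 0.0133)) though not called against control. Ucp2 and Cyp4a10 were not called (0.51 ± 0.25 (SE, adjusted p = 0.326) and 0.90 ± 0.31 (SE, adjusted p = 0.161)), with medians of 219 and 132 CPM in the other compounds, both above the control medians of 117 and 99.9 CPM. Without the 2 libraries the changes of Cyp24a1, Prlr, Havcr1 and Slc7a12 against the other compounds were 2.05, 2.12, 2.71 and 2.78 (adjusted p = 0.00162, 0.0111, 0.0111 and 0.0111). Those of Slco1a1, Cyp4a12a, Esm1 and Odc1 were -1.53, -0.999, -1.71 and -1.39 (adjusted p = 0.00398, 0.0111, 0.047 and 0.0866), so that Odc1 was no longer called and Cyp4a12a was.

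**Figure D5:**
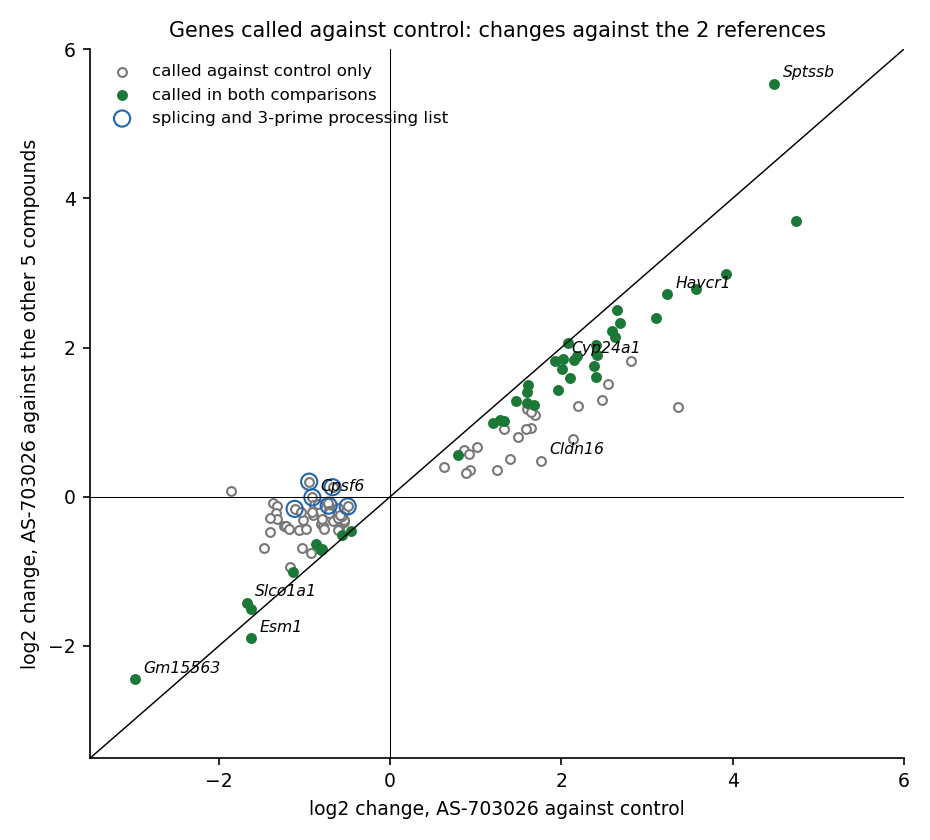
Log2 change of the 108 genes called against control (x axis), set against their change relative to the other 5 compounds (y axis). Green points are the 41 called in both, grey rings those called against control alone, and blue rings mark the 6 called RNA-processing genes, which lie near 0 on the y axis.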

How the data were processed

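The table analysed holds counts of reads per gene as deposited by the authors, for 43629 Ensembl genes in 30 kidney and 12 liver libraries. Per the submitters' processing notes, bcl2fastq 1.8.4, Trimmomatic 0.32, STAR 2.5.2b and featureCounts 1.5 were used with the mm10 mouse genome. The strand setting and the collapsing of molecular identifiers were not given in these sources, so overlapping and near-identical genes may share reads. Symbols and positions come from GENCODE M21 (GRCm38), which held 42548 of the genes. Names tied the columns to samples (0 unmatched).

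The 30 kidney libraries entered 1 edgeR 4.0.16 quasi-likelihood fit (R 4.3.3) with TMM scaling and filterByExpr by group, which left 11719 genes. The contrasts were AS-703026 against control and against the mean of the other 5 compounds, with adjustment by Benjamini-Hochberg and calls at 0.05. The common biological coefficient of variation was 0.294. The medullary level is the summed CPM of the principal cell list and the thin limb and inner medulla list. Alternatives were DESeq2 1.42.0, limma 3.58.1 voom with sample weights, RLE scaling, no filter and the 2 sides alone. Others were the covariates, the replicate number as a block and libraries left out. No 2 of the libraries agreed within sampling noise (lowest chi-square per gene 3.67). Deviations from the group means correlated weakly between same-numbered AS-703026 and control libraries (r = 0.113, 0.123, 0.0708 and -0.0665). Whether the numbers mark a shared batch is not in the labels and was not tested.

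The comparison, the 25 pathway and 22 cell type lists and the tests were chosen with earlier results of these data known. The rule for named genes took the 15 called genes of largest change in each direction with a mean of at least 5 CPM, up to 4 called members of each list, the 12 genes in each direction of smallest p without AS-703026 replicate 4 and AZD8055 replicate 4 (at least 5 CPM, replicates 1 to 3 outside the control range), the 8 in each direction of smallest p called in both contrasts, and a set of pathway sentinels whatever their values. The text names a subset. Cyp2j13, Ephx2, Etv1, Fgf1, Gusb, Kynu, Map2k1, Map2k2, Mapk3, Slc12a1, Slc12a3, Slc22a13, Slc7a12, Vegfa and Vim fall outside the rule and were chosen after their values were seen. A few genes of the fixed lists enter the counts and medians but are not reported here by name.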

Additional observations from a re-analysis of the deposited data

Results flagged for a closer look

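Each group of 4 to 6 libraries was searched for a highest or lowest library whose gap to its nearest neighbour was large relative to the group's range (Dixon's criterion). Of 158 groups, 22 held such a library. The criterion flags about 1 in 20 unselected groups by chance. Many of these genes were named for their change in the same libraries, so that rate is no yardstick here. AS-703026 replicate 4 accounted for 15 of the 22, 1 other AS-703026 library for 1 and control libraries for 6.

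In AS-703026 replicate 4 the collecting duct and thin limb genes stood apart: Aqp2 at 1333 CPM, Aqp4 at 674 CPM, Cryab at 2749.6 CPM and Fxyd4 at 285 CPM. The medullary level, the summed principal cell and thin limb markers, was 7184 CPM in that library. Cck at 161 CPM, Sptssb at 184 CPM, Plet1 at 309.7 CPM, Gstm2 at 585 CPM, Bcam at 485 CPM and Ifit3 at 42.7 CPM stood apart in it too. So did Krt18 at 140.2 CPM, S100a6 at 446 CPM, Vim at 61.3 CPM and Ucp2 at 592 CPM. Fgf1 stood apart in AS-703026 replicate 1, at 129 CPM.

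Among the controls, Cyp24a1 was highest in control 3 at 90.4 CPM, which was still below all 4 AS-703026 libraries. Cycs, cytochrome c, was set apart in control 1 at 181 CPM and Dusp6 in control 5 at 117 CPM. Gstm2 was set apart in control 2 at 93.1 CPM, Bcam in control 6 at 67.8 CPM and the medullary level in control 6 at 1112.7 CPM.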

How the results depend on the processing

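The count of genes called against control, 108, stayed within 1.5 times of itself with RLE scaling (109) and the 2 sides alone (98, 67 higher and 31 lower). It was 258 with DESeq2 and 188 with limma voom with sample weights (37 higher and 151 lower). Without the filter it was 296 (192 higher and 104 lower). It was 20 with the satellite-like share as covariate and 0 with the medullary level as one (945 at an unadjusted p under 0.05, edgeR). Against the other compounds, 88 became 93 with RLE scaling, 61 with the 2 sides alone, 125 with DESeq2 (85 higher and 40 lower), 822 with voom, 1892 without the filter, 2 with the medullary covariate and 0 with the satellite-like share (789 at an unadjusted p under 0.05, edgeR). Leaving out libraries gave 0 to 522 genes against control, the most without control 2 and AZD8055 replicate 4, and 1 to 470 against the other compounds. At this number of libraries and this depth the calls moved with single libraries, and the cause was not tested.

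The replicate number as a block left 0 genes against control (1434 at an unadjusted p under 0.05, edgeR) and 6 against the other compounds. The labels do not say whether the numbers pair samples. By correlation, 0 of the 4 AS-703026 libraries matched best with the control of its own number.

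Other alternatives were chosen after seeing the data. The medullary covariate without AS-703026 and AZD8055 replicates 4 left 2 genes against control and 12 against the other compounds. Without libraries at 5% or more satellite-like counts, which keeps AS-703026 replicate 1 alone and takes it to vary like the other groups, 1 gene was called in each comparison.

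Over 73 results and all alternatives, 42 values reversed sign, 787 fell short of the threshold and 121 newly passed it. The log2 change of Slc34a1 went to 0.0032 with the medullary covariate, 0.22 with that covariate and without the 2 libraries, and 0.14 without the satellite-rich libraries. In the same order Fxyd4 went to -0.38, -0.17 and -0.014 and Cck to -1.28, -1.80 and -0.45. With the medullary covariate and without the 2 libraries, Kl was 0.18, S100a6 -0.38, Dusp6 0.10, Etv5 0.059, Slc12a1 -0.31 and Gstm2 -0.071. Without the satellite-rich libraries, S100a6 was -0.16, Fgf1 -0.22 and Sptssb -0.72. Spry4 was 0.0065 with DESeq2 and 0.13 with voom. On leaving out libraries, Kl ran from -0.54 to 0.10, S100a6 from -0.15 to 2.76, Spry4 from -0.77 to 0.26, Map2k1 from -0.20 to 0.20, Map2k2 from -0.049 to 0.22, Fxyd4 from -0.16 to 2.39, Cck from -0.33 to 5.15 and Plet1 from -0.022 to 2.98.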

Other observations

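A podocyte gene and several metabolic genes lay outside the groups described above. Cdkn1c, the cell cycle inhibitor p57 that mature podocytes keep, had 63.1, 52.8, 64.2 and 74.9 CPM against 13.8 to 50.5 CPM in controls and rose (log2 change 1.02 ± 0.25 (SE), adjusted p = 0.0406; 0.95 without AS-703026 replicate 4 and AZD8055 replicate 4, adjusted p = 0.111). The 7 podocyte markers summed to 190.0, 138, 189 and 176 CPM against 83.8 to 159 CPM, and 1 of the 6 tested was called, where 0.452% of all genes were called higher. Ephx2, the soluble epoxide hydrolase, was chosen after its values were seen. It had 652, 526, 601 and 479.8 CPM, all below the control range of 691 to 849.6 CPM, with changes of -0.45 against control (adjusted p = 0.046) and -0.45 against the other compounds (adjusted p = 0.0176). Cycs, cytochrome c, fell by 0.57 on the log2 scale (adjusted p = 0.0467), at 193, 138, 188 and 143 CPM against 181 to 278 CPM, and was the single gene called among 70 tested of oxidative phosphorylation, where 0.469% of all genes were called lower and the list's median was 0.01. Nxpe3 and Tmem56 were below every control in all 4 libraries (log2 change -0.80 and -0.79, adjusted p = 0.0394 and 0.0406) and also lower against the other compounds (-0.71 and -0.70, adjusted p = 0.0273 and 0.0385). Without AS-703026 replicate 4 and AZD8055 replicate 4 the changes of Ephx2, Cycs, Nxpe3 and Tmem56 against control were -0.37, -0.48, -0.76 and -0.65 (adjusted p = 0.136, 0.139, 0.0734 and 0.156), and those of Ephx2, Nxpe3 and Tmem56 against the other compounds were no longer called (adjusted p = 0.144, 0.0927 and 0.281). The calls of Ephx2 and Tmem56 against control were lost on leaving out any of 8 of the 10 libraries. Those of Cycs and Nxpe3 were lost with any of 7, and that of Cdkn1c with any of 5. These include AS-703026 replicate 4, control 4 and control 5, without each of which no gene was called.

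Slc22a13, a urate and nicotinate transporter of tubule cells, was also chosen after its values were seen, at 143, 253, 239 and 191 CPM against 32.2 to 80.6 CPM. All treated libraries were above all controls, as in 202 of 11719 genes (1.72%), without a call (log2 change 1.99 ± 0.60 (SE), adjusted p = 0.0927; with replicates 1 to 3 2.05, adjusted p = 0.165). Markers of blood varied widely: erythrocyte markers summed to 9202, 15449.9, 3288 and 5212 CPM against 1035 to 8715 CPM, and neutrophil markers to 21.7, 20.9, 7.17 and 4.38 CPM against at most 4.71 CPM. Replicates 1 to 3 were above the controls on the latter. Markers of adrenal cortex summed to at most 10.0 CPM in controls, and 2 of the 8, Cyp11b2 and Cyp21a1, had 0 counts in the 10 libraries.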
